A study of Mus musculus with 6 samples.

Results

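The 8 genes described here are Itpr1, Atp2a2, Stim1, Stim2, Orai1, Trpm7, Camk2g and Cacna1h. They belong to families that store, release, sense, admit or read calcium, the signal that activates the mouse egg. They were taken by symbol from the authors' deposited table of 10896 genes, and all 8 were listed, each with the gene identifier that carries the same symbol in RefSeq. The study compared germinal vesicle stage oocytes, still arrested before the first meiotic division, in 2 groups of 3 samples with 50 oocytes each. All donors were (C57BL x CBA) F1 females. In vitro grown oocytes came from follicles that collagenase had freed from ovaries of females 10 to 12 days old. These follicles grew on membrane inserts in MEM-alpha with insulin, transferrin, selenium, 5% serum and follicle stimulating hormone. In vivo grown oocytes were released by needle from ovaries of females 7 to 11 weeks old, into M2 medium with dbcAMP. Culture, donor age and the collection medium differed together between the groups and cannot be told apart in any value below. Each sample was a pool, so fewer oocytes with a transcript and less transcript per oocyte cannot be told apart either.

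At fertilisation a sperm phospholipase makes inositol trisphosphate (IP3), which opens IP3 receptors in the endoplasmic reticulum and starts repeated calcium rises. SERCA pumps refill the store, STIM proteins sense its filling, and ORAI, TRPM7 and T-type channels can let calcium in from outside. How far the mouse egg relies on each of these was not tested. Calmodulin and its kinase CaMKII read the rises and lead the egg out of metaphase II arrest. Oocytes build up this machinery while they grow.

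Several members have close relatives, and reads can be assigned to a member only where its sequence differs. The longest exact run shared between coding sequences was therefore found in the GENCODE M21 transcripts (build GRCm38), and those of the called members and of the longest runs are shown, with the shared bases in capitals and 15 bases on either side. Positions count from the first base of the start codon.
Stim2, 900 to 944: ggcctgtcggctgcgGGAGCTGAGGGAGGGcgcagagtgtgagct
Stim1, 888 to 932: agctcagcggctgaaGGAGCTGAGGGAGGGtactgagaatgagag
Camk2g, 307 to 365: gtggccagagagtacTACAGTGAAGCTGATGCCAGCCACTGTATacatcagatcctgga
Camk2a, 304 to 362: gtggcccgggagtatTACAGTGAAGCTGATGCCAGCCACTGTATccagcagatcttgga
Atp2a2, 2236 to 2309: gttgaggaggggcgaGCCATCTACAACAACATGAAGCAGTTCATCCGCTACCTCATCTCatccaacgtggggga
Atp2a1, 2239 to 2312: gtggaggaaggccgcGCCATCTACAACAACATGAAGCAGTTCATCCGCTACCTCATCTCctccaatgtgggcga
Cacna1h, 4618 to 4697: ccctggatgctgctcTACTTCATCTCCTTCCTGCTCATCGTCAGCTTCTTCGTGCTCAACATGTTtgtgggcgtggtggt
Cacna1i, 4090 to 4169: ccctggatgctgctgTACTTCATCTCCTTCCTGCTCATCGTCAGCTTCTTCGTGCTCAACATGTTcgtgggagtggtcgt

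Stim2 and Stim1 shared no run longer than 15 bases over 2265 and 2382 coding bases. Camk2g shared at most 29 bases with Camk2a or Camk2b and 23 with Camk2d, none of which were listed in the authors' deposited table. Atp2a2 shared 44 bases with Atp2a1 and with Atp2a3, which were not listed either. The longest run of all members, 50 bases, lay between Cacna1h and Cacna1i. Itpr1 shared 28 bases with Itpr2 and 29 with Itpr3, Trpm7 23 with Trpm6, and Orai1 18 with Orai2. The length of the reads is not given in the sources used here, so how many reads these runs could blur is not known.

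Every oocyte marker fixed for the check was listed (12 of 12), led per length by Gdf9, the oocyte's growth factor, at group means of 37810 normalised reads in vitro and 43120 in vivo. Of the oocyte markers 0 were called higher in vitro and 3 lower, Bmp15 and Nlrp5 (1.76-fold and 2.89-fold lower, PPEE 1.52e-08 and 5.19e-09) and Kit (1.84-fold lower, PPEE 0.00101), and their summed mean was 140328 in vitro and 186618 in vivo. Of 15 granulosa and cumulus markers 7 were listed, with a summed mean of 397 in vitro and 281 in vivo; Foxl2, Amh and Has2 were not listed. Fshr, the follicle stimulating hormone receptor, and Inha, an inhibin subunit, were called higher in vitro, while Cyp19a1, the highest of this list per length, was not (PPEE 0.423). Fshr was low, at group means of 12.4 in vitro and 2.45 in vivo. Of the 7, 4 had a higher mean in vitro and 3 a lower one, Gja1, Kitl and Nr5a2, none of which were called. Of 13 theca and stroma markers only Cyp11a1 was listed, and of 10 blood and immune markers Cd68 and Pecam1. Pecam1, a surface protein of endothelial cells and platelets, had group means of 561 in vitro and 849 in vivo and was called lower (PPEE 0.00378). The part of other cell types, or of these oocyte markers, in any result below was not tested. In the reads recovered per library, in vitro library A lay closest to the in vivo oocytes, with a median distance from the in vivo mean of 0.32 on the log2 scale across 7484 genes, against 0.44 for C and 0.58 for B. Results on recovered reads of the members are therefore given with and without it, and those of the other calcium genes as counts.

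Of the 8 calcium genes, 1 was called higher in vitro (Camk2g) and 1 lower (Stim2). A gene is called here when its PPEE of the authors' deposited table, read as the posterior probability of equal expression and not a p-value, is below 0.05. Over all 10896 genes 6.75% were called higher and 8.31% lower, 15.1% in all, and the 2 calls among 8 members, 1 in each direction, are a description. The median log2 change of the members, in vitro over in vivo, was 0.22, beside 0.015 for all genes. By group means, 4 members stood higher in vitro (Orai1, Atp2a2, Cacna1h and Camk2g) and 4 lower (Stim2, Itpr1, Trpm7 and Stim1).

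Levels per length spanned a wide range among the members. Per kilobase of gene length, Camk2g and Atp2a2 led in both groups, with group means in the authors' deposited table of 326 and 363 normalised reads in vitro and 213 and 189 in vivo. Stim1 was the lowest in both, at 6.55 in vitro and 7.37 in vivo, which placed it above 12.8% and 15.1% of all genes. Between these, the in vivo order was Stim2 at 142 ± 8.52, Itpr1 at 44.2 ± 8.64, Trpm7 at 24.3 ± 3.14, Orai1 at 17.9 ± 4.44 and Cacna1h at 10.7 ± 1.89 (SD, n = 3 recovered libraries each). Trpm7 and Orai1 overlapped between libraries there, as did Cacna1h and Stim1, while the other neighbours with recovered reads did not. In vitro, Stim2 stood at 64.7 ± 18.4, Orai1 at 46.6 ± 26.2, Itpr1 at 31.5 ± 4.86, Cacna1h at 18.6 ± 4.67 and Trpm7 at 18.6 ± 3.94 (SD, n = 3 recovered libraries each). The ranges of Stim2 and Orai1, of Orai1 and Itpr1, and of Cacna1h and Trpm7 overlapped in vitro. Camk2g and Atp2a2 have no spread here, so their order is not separated.

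**Figure D1:**
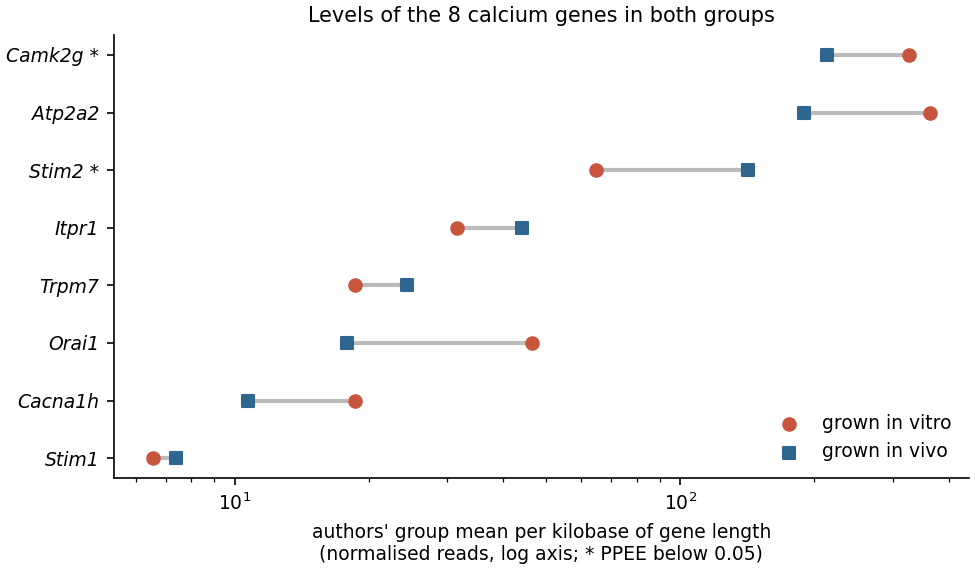
The authors' group mean of each calcium gene per kilobase of gene length (normalised reads, log axis), with circles for oocytes grown in vitro, squares for those grown in vivo, and an asterisk for a PPEE below 0.05. Camk2g and Atp2a2 lie highest and Stim1 lowest in both groups, while Orai1 ranks above Itpr1 in vitro and below Trpm7 in vivo.

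The group means hold no spread, but whole reads per library could be recovered from them for 6 members, since each library adds its whole reads, times a fixed step of its own, to the group mean. The libraries are named A, B and C within each group and cannot be tied to the numbered samples. Recovered reads were scaled by each library's size factor and tested with limma voom over 7484 genes, of which 10.7% passed at an adjusted p below 0.05 (5.20% higher and 5.53% lower in vitro). The labels do not tell whether separate cultures or animals gave the samples within a group, so these p-values measure only the spread between samples, which may be technical. Of the 6 members, 1 passed, Stim2, and in 5 the libraries of both groups did not overlap, as in 33.5% of all recovered genes.

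Stim2 encodes a store sensor that responds to small losses of calcium. Among the in vitro libraries, taken as A, B and C, it held 414, 234 and 308 normalised recovered reads, and among the in vivo ones 739.8, 705 and 656. All in vitro libraries lay below all in vivo ones, with B lowest and A highest of the in vitro group. The in vivo libraries varied by 6.00% of their mean (coefficient of variation) and the in vitro ones by 28.4%. Stim2 fell by 1.16 on the log2 scale in vitro (SE 0.19, adjusted p = 0.00395), and the authors' deposited table gave it a PPEE of 1.12e-13 at a 2.20-fold lower mean. It passed with each library left out, with log2 changes from -1.39 without in vitro library A to -0.95 without in vitro library B and adjusted p from 5.11e-05 to 0.0351.

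Stim1, the other sensor, gates strong store-operated entry in many cells. Its recovered reads were few, at 19, 30 and 18 for the libraries grown in vitro and 43, 33 and 14 for those grown in vivo. In normalised reads these were 17.5, 31.1 and 22.3 in vitro against 34.8, 29.2 and 15.8 in vivo, so the in vitro libraries lay within the range of the in vivo ones. The log2 change was -0.19 with a 95% interval from -1.04 to 0.66 (adjusted p = 0.782), wide enough to hold a 2-fold decrease. Its direction turned to 0.031 without in vitro library A and to 0.047 without in vivo library A. Per length, Stim2 stood 9.88 times as high as Stim1 in vitro and 19.3 times as high in vivo by group means. Between libraries this ratio ran from 5.51 to 17.4 in vitro and from 15.6 to 30.4 in vivo, so the groups overlapped.

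Orai1 forms the pore that STIM proteins open. It held 43.2, 139.9 and 78.2 normalised recovered reads in vitro, in the order A, B, C, and the in vivo libraries held 29.9, 27.5 and 42.9. Library B held over 3 times as much as library A of the same group, and A lay just above the highest in vivo library. The authors' deposited table gave a 2.61-fold higher mean in vitro with a PPEE of 0.345, the largest fold among the members without a call. In recovered reads the log2 change was 1.24 (SE 0.41, 95% interval 0.38 to 2.10, adjusted p = 0.0609). Orai1 passed without in vitro library A, at 1.72 (adjusted p = 0.00125), and with limma trend (adjusted p = 0.0409). Leaving out A, the in vitro library nearest to the in vivo values, enlarges the change. Of all 7484 genes, 24.3% passed without A and 12.7% with limma trend, beside 10.7% in the main fit. The log2 change of Orai1 was smallest without in vitro library B, at 0.80 (adjusted p = 0.190). Of the 7 listed granulosa and cumulus markers, 4 had a higher mean in vitro and 3, Gja1, Kitl and Nr5a2, a lower one. Inha, the 1 of these 7 that limma voom called, was also higher in vitro. It had 85.5, 122 and 81.9 normalised recovered reads in vitro against 34.8, 28.3 and 23.7 in vivo. Its part in the Orai1 values was not tested. Per length, the sensor Stim2 stood 3.64, 0.635 and 1.49 times as high as Orai1 in A, B and C of the in vitro group, and 9.39, 9.74 and 5.80 times in the in vivo libraries. Every in vitro ratio was below every in vivo ratio, which follows from the lack of overlap in each gene and is no further result. In B alone Orai1 stood above Stim2.

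Cacna1h encodes a T-type channel that carries calcium into growing oocytes and eggs. It had 110.3, 185 and 165 normalised recovered reads in the in vitro libraries and 70.3, 97.4 and 97.1 in vivo. Every in vitro library was above every in vivo library, and A was again the nearest to the in vivo values. The log2 change was 0.77 (SE 0.25, 95% interval 0.24 to 1.31) and missed the threshold (adjusted p = 0.0598). Without in vitro library A it was 1.02 and passed (adjusted p = 0.00382), as did 24.3% of all recovered genes. The authors' deposited table gave a 1.74-fold higher mean in vitro and a PPEE of 0.0580, just outside a call.

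Trpm7 encodes a channel for divalent cations fused to a kinase, which supplies calcium and magnesium to the egg. Normalised recovered reads were 145, 101 and 153 in vitro against 199.7, 160.3 and 162 in vivo. The in vitro libraries lay below the in vivo ones, with in vitro library C only slightly under in vivo library B. The log2 change of -0.41 (95% interval -0.88 to 0.045) did not pass (adjusted p = 0.211), nor did the change of -0.51 without in vitro library A (adjusted p = 0.121). The PPEE was 0.434 in the authors' deposited table.

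Itpr1 encodes the type 1 IP3 receptor, through which the store empties at fertilisation. Its normalised recovered reads were 256, 331 and 346 in vitro against 518, 443 and 348 in vivo. The highest in vitro library and the lowest in vivo library nearly met. Here in vitro library A was the farthest from the in vivo mean, unlike for Stim2, Orai1 and Cacna1h, where it was the nearest. The log2 change was -0.51 (SE 0.18, 95% interval -0.90 to -0.11), which did not pass (adjusted p = 0.0852) nor with any library left out (adjusted p from 0.0587 to 0.284). Without in vitro library A it was -0.37 (adjusted p = 0.132). The PPEE of Itpr1 was 0.245, at a 1.40-fold lower mean in vitro, in the authors' deposited table. Itpr2, another IP3 receptor, stood 1.44 times as high as Itpr1 per length in vitro and 1.06 times in vivo by group means, and Itpr1 stood 11.9 and 15.2 times as high as Itpr3.

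**Figure D2:**
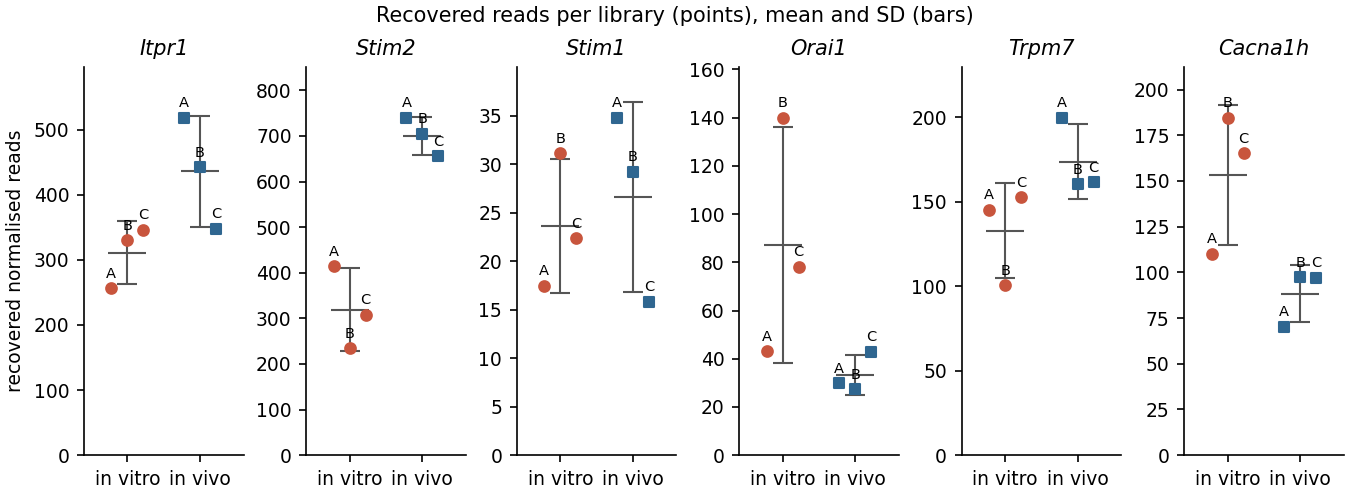
Normalised reads recovered per library (vertical axes, each from 0) for 6 calcium genes, with points for libraries A, B and C of each group and bars for the mean and SD of 3 libraries. Stim2 is lower in all 3 in vitro libraries, while the in vitro values of Orai1 spread from 43.2 to 139.9.

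**Figure D3:**
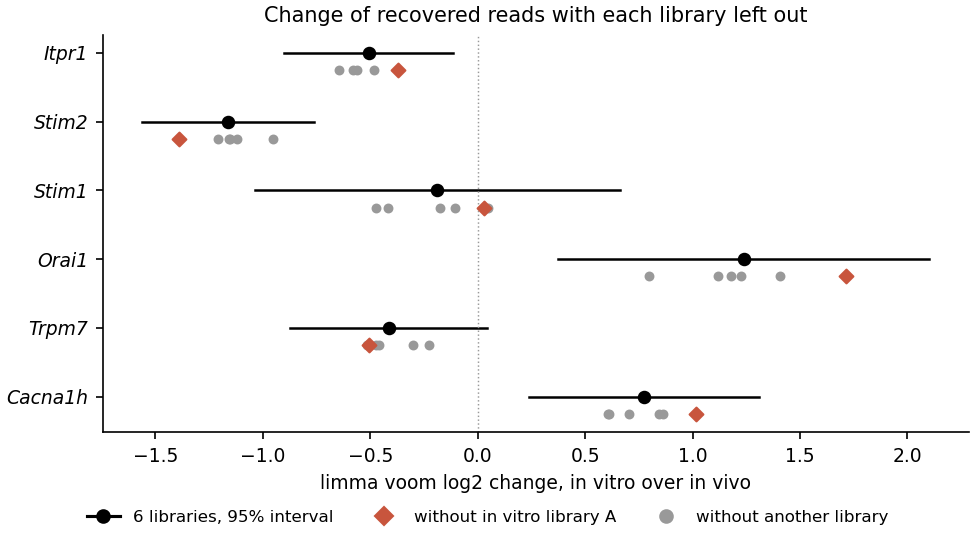
The limma voom log2 change of each recovered calcium gene, in vitro over in vivo (horizontal axis), with its 95% interval from 6 libraries and the value with each library left out. Stim2, Itpr1 and Trpm7 stay below 0 with each library left out, though the 95% interval of Trpm7 reaches past 0. The changes of Stim2, Orai1 and Cacna1h are largest in size without in vitro library A, and Stim1 lies on both sides of 0.

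Atp2a2 encodes the SERCA2 pump that refills the store. Its group mean was 1713 normalised reads in vitro and 892 in vivo in the authors' deposited table, 1.92-fold higher in vitro, yet the PPEE was 0.615. Camk2g, the CaMKII isoform that mouse eggs need to leave metaphase II arrest, stood at 1179 in vitro and 772 in vivo. That change of 1.53-fold was smaller than the one of Atp2a2, but its PPEE was 0.00519. Neither gene could be split into libraries: 45 and 20 sets of whole reads gave the in vitro means of Atp2a2 and Camk2g, and 3 and 2 sets their in vivo means. The spread behind both values was thus not seen here.

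Among all other genes of the authors' deposited table, those nearest to Stim2 in the plane of both log2 group means (with 1 added) were Zfp473, Ganab and AW554918, at distances of 0.068, 0.076 and 0.11. Nearest to Camk2g were Cfl2, Med7 and Asxl1, at 0.063, 0.064 and 0.080. Likeness here rests on 2 group means only.

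The other calcium genes were taken from 11 lists arranged by role, in which 128 further genes were listed in the authors' deposited table. Of these 7 were called higher in vitro (5.47%) and 15 lower (11.7%), beside 6.75% and 8.31% of all genes, and their median log2 change was -0.12. The calls counted per list below are to be read beside the same shares of all genes and are a description. Reads were recovered for 81 of the 128 genes, and limma voom called 5 higher and 11 lower. Over all 7484 recovered genes it called 5.20% higher and 5.53% lower. Leaving out 1 library moved the counts of the other calcium genes together with those of all 7484 genes. Without in vitro library A, 14 of the other calcium genes were called higher and 16 lower, beside 24.3% of all genes called. Without in vitro library C 0 were called higher and 1 lower, beside 0.962% of all genes. The higher and lower calls were 0 and 2 without in vivo library A (1.16% of all genes), and also 0 and 2 without in vivo library B (1.95%). They were 1 and 3 without in vitro library B (3.93%) and 1 and 7 without in vivo library C (6.73%). Of the 12 genes named below that limma voom called, all 12 passed without in vitro library A, and 1, Vdac1, passed with each of the 6 libraries left out in turn. Of the same 12, Map2k2, Mrvi1, Pkd2, Rcn2 and Trpm6 passed in none of these 6 fits but the one without in vitro library A. Plcb3 and Slc30a9, which limma voom did not call with all libraries, also passed without in vitro library A (adjusted p = 0.0120 and 0.00487) and in no other of these 6 limma voom fits.

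On the store membrane, 0 of 9 listed channels and pumps were called higher and 1 lower. Pkd2, a calcium-permeable cation channel, had normalised recovered reads of 22.1, 13.5 and 21.1 in vitro against 37.2, 54.9 and 38.4 in vivo. These did not overlap, and Pkd2 fell by 1.19 on the log2 scale (adjusted p = 0.0489). Of 9 listed regulators of IP3 receptors 0 were called in either direction, led per length by Bcl2l10, an oocyte member of the Bcl2 family, at group means of 17721 in vitro and 15662 in vivo. Mrvi1, a partner of the IP3 receptor, is 1 of the 4 recovered genes of this list and was called lower by limma voom, with 58.8, 34.2 and 48.4 normalised recovered reads in vitro against 88.9, 101 and 89.2 in vivo (log2 change -0.998, adjusted p = 0.0324).

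Genes that make or remove IP3 were called once in each direction among 14 listed. Of the 12 with recovered reads, limma voom called 0 higher and 2 lower, among them Plcg2. Plcg2, a phospholipase C activated by tyrosine kinases, had 383, 211 and 270.5 normalised recovered reads in vitro against 462, 593 and 444 in vivo. It fell by 0.82 on the log2 scale in vitro (adjusted p = 0.0249), with no overlap between the groups. Plcb3, a phospholipase C acting downstream of G proteins, had a PPEE of 0.0372 and a 3.03-fold higher mean in the authors' deposited table for oocytes grown in vitro. Its recovered reads were low, at 22, 46 and 20 against 9, 11 and 12, and did not pass (adjusted p = 0.0526). Plce1, the highest of the list per length, was not called (PPEE 0.982), and Plcz1, the sperm phospholipase, was not listed.

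Proteins that hold calcium inside the store were called lower or not at all: of 11 listed, 0 were called higher and 3 lower, with a median log2 change of -0.36. Hspa5, the main chaperone of the endoplasmic reticulum and a calcium buffer, had group means of 2690 in vitro and 4078 in vivo in the authors' deposited table (1.52-fold lower, PPEE 2.02e-12). Calu, a calcium-binding protein of the secretory pathway, was 1.45-fold lower (PPEE 6.11e-10), and Pdia4, a disulfide isomerase, 1.28-fold lower (PPEE 0.00699). Calr, the buffer calreticulin, was not called at 1215 in vitro and 1536 in vivo (PPEE 0.174). Rcn2, reticulocalbin 2, was the 1 gene of this list with a higher mean in vitro and had no call (PPEE 0.148). Its normalised recovered reads were 69.8, 219 and 169 in vitro against 51.7, 48.7 and 50.8 in vivo, and limma voom called it higher (log2 change 1.40, adjusted p = 0.0331). As for Orai1, in vitro library A lay closest to the in vivo values.

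Calcium entry held 16 listed genes, of which 0 were called higher and 2 lower. Beside Stim2 this was Trpm6, the relative of Trpm7, with 57.0, 50.8 and 58.3 normalised recovered reads in vitro against 116, 81.5 and 108 in vivo. Trpm6 fell by 0.86 on the log2 scale (adjusted p = 0.0425), and its groups did not overlap. The highest of the list per length, Tmem66, a brake on store-operated entry also known as Saraf, was not called (PPEE 0.985).

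Export from the cytosol was covered by 4 listed pumps, of which 0 were called higher and 2 lower. Atp2b3, a plasma membrane calcium pump, had 69.8, 52.9 and 65.8 normalised recovered reads in vitro against 198, 142 and 102 in vivo, and it fell by 1.21 on the log2 scale (adjusted p = 0.0181). Atp2b1, a more abundant pump of the same family, had a PPEE of 0.0145 at a 1.21-fold lower mean in the authors' deposited table. Atp2c1, the calcium pump of the Golgi and the highest of the list per length, was 1.62-fold lower at a PPEE of 0.0513. The sodium-calcium exchangers Slc8a1, Slc8a2 and Slc8a3 were not listed.

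Mitochondria take up calcium through outer membrane porins and the inner membrane uniporter. Of 10 listed genes 0 were called higher and 2 lower, both porins. Vdac1 had 270.2, 252 and 221 normalised recovered reads in vitro against 518, 477 and 473 in vivo. These tight groups stood far apart, and Vdac1 fell by 0.98 on the log2 scale (SE 0.16, adjusted p = 0.00395). Vdac2 was 1.23-fold lower (PPEE 0.00645) and Vdac3, the highest per length, was not called (PPEE 0.959) in the authors' deposited table. Mcu, the uniporter pore, had means of 679 in vitro and 1338 in vivo but a PPEE of 0.709.

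The list of calmodulin, kinases and phosphatase genes had the most higher calls, 3 of 15 listed, with 2 lower and a median log2 change of 0.40. Calm2, a calmodulin gene and the highest of the list per length, stood 1.48-fold higher by the authors' deposited table (PPEE 7.45e-05), and Camk2g was called higher too. The 2 lower calls were kinases of the protein kinase C family. Prkcb had 38.6, 31.1 and 13.6 normalised recovered reads in vitro against 94.6, 67.3 and 104 in vivo (log2 change -1.69, adjusted p = 0.0136). Prkcd had 48.7, 25.9 and 27.3 in vitro against 72.8, 84.1 and 99.4 in vivo (log2 change -1.32, adjusted p = 0.0185). In both, every in vitro library lay below every in vivo one. Of the 12 genes of this list with recovered reads, limma voom called these 2 lower and 2 higher. The 2 higher ones were phosphatase genes without a call in the authors' deposited table.

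Genes through which the calcium signal ends the arrest were mostly not called, with 2 of 19 listed higher and 0 lower. Fbxo43, the inhibitor that CaMKII marks for destruction, had means of 1597 in vitro and 1857 in vivo (PPEE 0.865), and Wee2, a kinase that inactivates the mitotic kinase of eggs, 5578 and 6060 (PPEE 0.982). Fzr1, which switches on the ubiquitin ligase that removes cyclin B, had 217, 399 and 287 normalised recovered reads in vitro against 160.1, 98.3 and 156 in vivo (log2 change 1.11, adjusted p = 0.0166). Map2k2, a kinase of the MAP kinase cascade, had 26.7, 49.8 and 31.0 in vitro against 16.2, 11.5 and 7.91 in vivo (log2 change 1.51, adjusted p = 0.0409). Ccnb1, cyclin B, the highest of the list per length, was not called (PPEE 0.829).

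Release of cortical granules, which hardens the egg coat, held 16 listed genes with 1 called higher and 2 lower. Vamp3, a vesicle fusion protein, stood 1.29-fold higher by the authors' deposited table (PPEE 0.00969), and Nlrp5, a subcortical protein that egg organisation depends on, was 2.89-fold lower (PPEE 5.19e-09). Syt11, a synaptotagmin, was called lower (1.62-fold, PPEE 0.00235), but its recovered reads rested on 1 group of unlike libraries, with 132 normalised reads in in vivo library A and 536 and 646 in B and C, against 350.1, 246 and 213 in vitro. Limma voom did not call it (log2 change -0.36, adjusted p = 0.615), but did without in vivo library A (-1.14, adjusted p = 0.0327). Astl, the granule protease ovastacin, had means of 3541 in vitro and 4724 in vivo without a call (PPEE 0.816), and Padi6, the highest of the list per length, was not called either (PPEE 0.718).

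Zinc leaves the egg in sparks that follow the calcium rises. Of 13 listed zinc transporters 1 was called higher and 1 lower. Slc30a6 had 23.0, 14.5 and 11.2 normalised recovered reads in vitro against 50.1, 54.9 and 37.3 in vivo (log2 change -1.53, adjusted p = 0.0243). Slc30a9 stood at 21.3 ± 11.5 in vitro and 4.57 ± 1.06 in vivo (SD, n = 3 recovered libraries each; PPEE 0.0260), and limma voom did not call it (adjusted p = 0.0845). Slc39a10, the zinc importer with the highest level per length, was not called (PPEE 0.951).

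**Figure D4:**
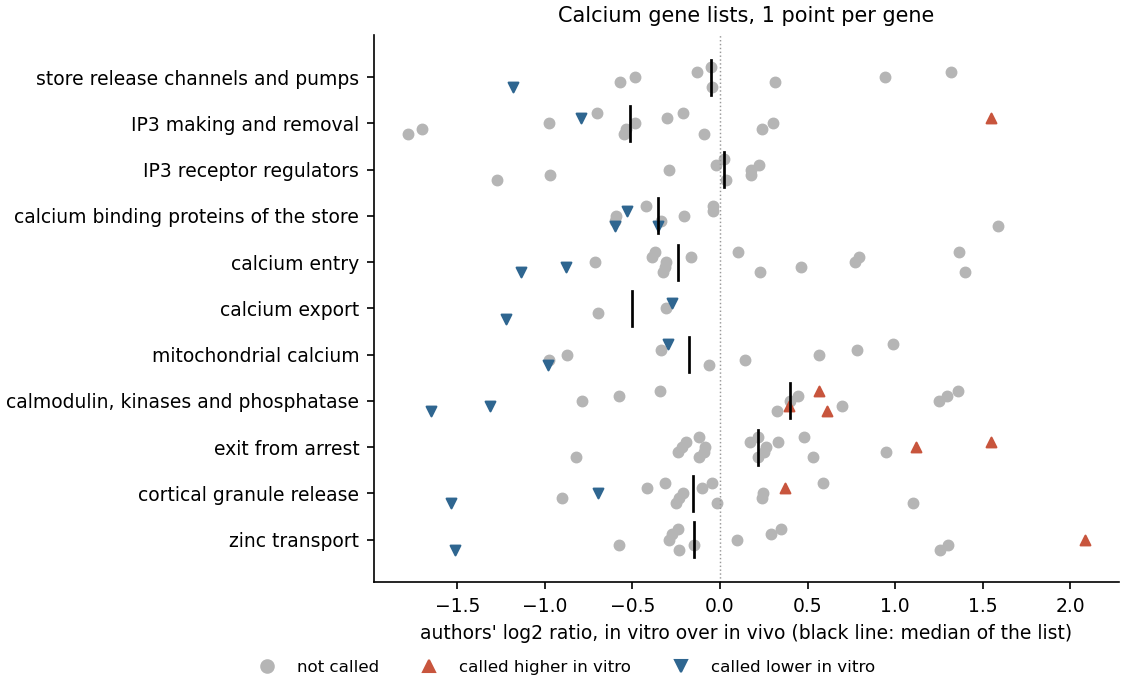
The log2 ratio of the authors' deposited table, turned to in vitro over in vivo, for each listed gene of 11 calcium lists (1 point per gene), with triangles for genes at a PPEE below 0.05 and a black line for each list's median. Called genes of the store proteins, entry, export and mitochondrial lists all lie below 0, and the calmodulin list holds 3 of the higher calls.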

How the data were processed

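Per the labels' protocols, cDNA was amplified with a low-input kit from 10 ng of RNA per sample. The submitters' processing notes name BWA, with no version, and build mm9. The deposited signal is the authors' group mean of normalised reads per gene; how it was scaled is not given in the sources used here. The deposited log2 ratio equalled that of both means after adding 0.599 to each (largest difference 4.11e-09); its sign was turned here. PPEE is a call of the authors and no p-value.

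Members and gene lists were chosen with earlier results of these data known. The members were always named. Of each list the gene with the highest mean per length and up to 4 called genes with the lowest PPEE were named, and so were the 3 nearest genes of each called member. Calr, Rcn2, Mrvi1, Mcu, Fbxo43, Wee2, Astl, Inha, Fshr, Cd68, Itpr2, Itpr3, Bmp15, Kit, Gja1, Kitl and Nr5a2 were added after their values were seen. A gene that the rule would name is not reported here.

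Steps of the 3 libraries of a group were found from repeated differences between low means. Means up to 400 in vitro and 750 in vivo were solved for whole reads at 10 significant digits; both limits were set after seeing the data. A single solution existed for 95.1% of in vitro and 95.4% of in vivo means up to 200, and for 71.6% of in vivo means between 600 and 750. No solution existed for 4.90% and 4.62% of means up to 200. Among means shifted at random, 13.9% had a solution at 200 to 400 in vitro, 66.2% at 400 to 600 in vivo and 96.6% at 600 to 750 in vivo, so a mean that is no sum of whole reads would often go unnoticed at the levels of Itpr1 and Stim2. The 7484 genes solved in both groups held 645049 to 1023579 reads per library, with no molecular identifiers. Limma 3.58.1 in R 4.3.3 was run with voom, each library size being set by its size factor, with a 2-sided test and Benjamini-Hochberg adjustment over all 7484 genes. Alternatives were limma trend, TMM scaling, a read minimum, leaving out each library, and other thresholds or pseudocounts. Recovery and test were checked on simulated data. No coordinates are given, since build GRCm38 of the annotation differs from mm9.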

Additional observations from a re-analysis of the deposited data

How the results depend on the processing

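The 2 called members kept their calls at a PPEE below 0.01, with at least a 1.5-fold change and with a mean of at least 10. None of the 8 deposited log2 changes turned its sign with 0, 1 or 10 added to the means, after centring on the median of all genes, or with means scaled to the same sum. Among the other calcium genes the 7 higher calls became 3 at a PPEE below 0.01 and 4 with at least a 1.5-fold change. In recovered reads the 1 called member became 2 with limma trend, where Orai1 joined at a log2 change of 1.22, and 0 among genes with means up to 200, an alternative added after seeing the data that does not hold Stim2. With 1 library left out it ranged from 1 to 3. Higher calls among the other calcium genes, 5 in all, became 12 with limma trend and 2 among genes with means up to 200, and ranged from 0 to 14 with 1 library left out. Lower calls, 11 in all, became 6 with means up to 200 and ranged from 1 to 16. The calls over all genes moved too, from 803 of 7484 to 947 with limma trend and 366 of 5805 (6.30%) with means up to 200, and between 72 and 1815 with 1 library left out. The log2 change of Stim1, -0.19 in all, ranged from -0.47 to 0.047 with 1 library left out and turned positive when library A of either group was dropped (0.031 for the in vitro one). That of Syt11, -0.36 in all, ranged from -1.14 without in vivo library A to 0.031 without in vivo library C. The cause of these shifts was not tested. No paired analysis was possible because the columns of group means, and the libraries recovered from them, carry no replicate numbers. Stim1 had the fewest reads of the recovered members, 14 to 43 per library.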
